A study of Mus musculus with 7 samples.

Results

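Excitation-contraction coupling genes, which turn the electrical signal of a muscle fibre into release and re-uptake of calcium, were followed in 7 RNA-seq libraries of regenerating mouse muscle. The genes were Cacna1s, Cacnb1, Stac3, Ryr1, Jph2, Trdn, Casq1, Casq2, Atp2a1 and Atp2a2, chosen by name for their place in calcium release, calcium uptake and the triad junction. These 10 were found among the 48820 gene identifiers counted, and all 10 passed the filter on low counts. The libraries were made from the tibialis anterior (TA), a shin muscle, taken from male mice aged 7 weeks on day 3 after BaCl2, a salt that destroys fibres and starts their regrowth. The control group (3 libraries) had the genotype WT; Pax7-CreERT2 and the Sirt7 scKO group (4 libraries) had Sirt7fl/fl; Pax7-CreERT2, so both groups carried the Cre allele and the injury. Cre expressed from Pax7 acts in muscle stem cells and their descendants, while RNA of the whole muscle was sequenced. CreERT2 needs a drug to become active, whose schedule is not given in the sources used here. Libraries are called biological replicates in the labels without saying that each came from a separate animal. A p-value therefore sets a group difference against the variation between these libraries.

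In a muscle fibre, an action potential travels into the T-tubules, where the voltage sensor, a modified calcium channel, touches the ryanodine receptor of the sarcoplasmic reticulum. The receptor opens, calcium leaves the reticulum and contraction begins, and calcium pumps then return it to the store, where calsequestrin binds it. T-tubule and reticulum meet at the triad, which junctophilins and triadin hold together. Several of these proteins exist as a fast-fibre form and as a form shared by slow fibres, heart and other tissues, and during regrowth new fibres express some of the second kind.

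Total counts were 5425095 to 7553137 per library. Sirt7, the targeted gene, stood at 46.2 to 70.6 CPM (counts scaled to a common library total) in control and 34.1 to 52.97 CPM in Sirt7 scKO libraries, and the groups overlapped (edgeR adjusted p = 0.288), so whole-muscle RNA gave no clear check of the genotype labels. The muscle label held in every library, with 1961 to 12226 counts of the fibre actin Acta1. Casq2 and Atp2a2 are the calsequestrin and pump of heart and slow fibres, so markers of both were read. Of 6 heart genes, Myl7 had no counts, and Myh6, Ryr2, Nppb and Nppa had at most 5 per library. Tnni3, the only heart gene tested, had 8 to 17 (1.44 to 1.58 CPM in control and 1.80 to 2.39 CPM in Sirt7 scKO). Of 8 slow-fibre genes, the myosin genes Myh7, Myl2 and Myl3 had at most 6 counts and Myh7b had 9 to 21, while the troponin genes Tnnt1, Tnnc1 and Tnni1 had 19 to 83, 28 to 70 and 57 to 205 and the tropomyosin gene Tpm3 had 2094 to 3484. The summed level of the 5 tested was 429 to 488 CPM in control and 443 to 508 CPM in Sirt7 scKO. Most of it was Tpm3, at 364 to 463 CPM in control and 413 to 490 CPM in Sirt7 scKO. Log2 fold changes were -1.15 for Tnni1, -0.81 for Tnnc1, -0.69 for Tnnt1, -0.22 for Myh7b and 0.07 for Tpm3. None of the 5 passed the threshold. The part of heart and slow-fibre genes in the values of Casq2 and Atp2a2 was not tested. Every pair of libraries differed by more than sampling noise (chi-square of at least 3.09 per degree of freedom over genes).

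None of the 10 genes passed an adjusted p of 0.05 in edgeR's quasi-likelihood test, in which 0.131% of 16764 tested genes passed. Of the 10, 9 had a negative log2 fold change of Sirt7 scKO over control, between -1.10 and -0.29, against 48.7% of all tested genes, and Atp2a2, the widely expressed calcium pump, stood at 0.08. The median over the 10 was -0.98, against 0.01 over all tested genes. An unadjusted p under 0.05 was reached by 6 of the 10, all with negative values (Ryr1, Jph2, Cacnb1, Casq2, Cacna1s and Trdn), against 6.94% of all tested genes with a negative value. The groups were separate in only 1 of the 10, Jph2, against 5.71% of tested genes with every Sirt7 scKO library below every control library. In bulk RNA, fewer fibres and less RNA per fibre cannot be told apart.

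The count of 0 depended on single libraries and on the test. Without control replicate 3, 4 of the 10 passed as lower (Ryr1, Cacnb1, Casq2 and Jph2), against 0.325% of all tested genes. Leaving out Sirt7 scKO replicate 1 instead gave 5 (Ryr1, Cacnb1, Atp2a1, Casq1 and Jph2, against 1.11%), and leaving out Sirt7 scKO replicate 4 gave Jph2 alone (against 1.96%). With all libraries, DESeq2 called 3 as lower (Cacnb1, Casq2 and Jph2, against 1.01%). EdgeR with no filter on low counts called 8 (all but Stac3 and Atp2a2, against 2.06%), and limma voom called 0 (against 0.137%). Without the filter the log2 fold change of Ryr1 hardly moved (-1.04 against -1.05), while its edgeR adjusted p fell from 0.112 to 6.3e-10. The cause of that fall was not tested.

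**Figure D1:**
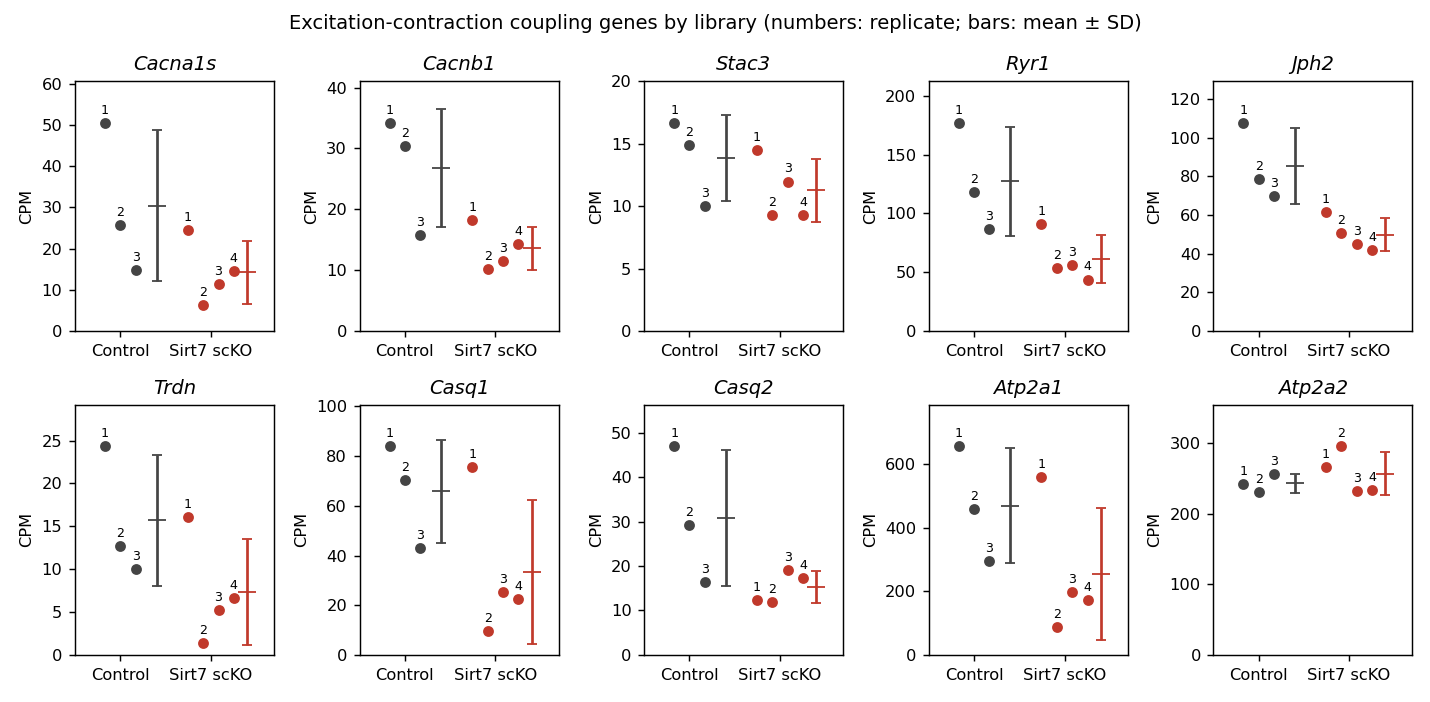
CPM of each gene (vertical axis, from 0) in the 3 control and 4 Sirt7 scKO libraries, with replicate numbers beside the points and the mean ± SD to the right of each group. Control replicate 1 is the highest library in 9 of the 10 genes, Jph2 is the only gene whose groups are separate, and Atp2a2 is nearly level.

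The voltage sensor was represented by its pore subunit, its beta subunit and the adaptor that brings the channel to the triad. Cacna1s (ENSMUSG00000026407.17, GRCm38 chromosome 1, 136052750 to 136119822, plus strand), the pore-forming subunit that senses voltage, stood at 50.6, 25.9 and 14.9 CPM in the control libraries. In Sirt7 scKO it stood at 24.6, 6.41, 11.4 and 14.6 CPM, values being given in the order of the replicate numbers here and below. Control replicate 3 lay within the Sirt7 scKO range, and the highest control library was 3.4-fold above the lowest. The log2 fold change was -1.10 (SE 0.402, edgeR adjusted p = 0.261), and it became -0.52 without control replicate 1. Cacnb1 (ENSMUSG00000020882.17, chromosome 11, 98001508 to 98023034, minus strand), the beta subunit that carries the channel to the membrane, stood at 34.2, 30.4 and 15.8 CPM in control and at 18.3, 10.2, 11.5 and 14.4 CPM in Sirt7 scKO. Only control replicate 3 fell below the highest Sirt7 scKO library (log2 fold change -0.98, SE 0.248, edgeR adjusted p = 0.133). Stac3 (ENSMUSG00000040287.9, chromosome 10, 127501686 to 127508823, plus strand), the adaptor without which the sensor does not trigger release in mouse muscle, had 16.7, 14.9 and 9.99 CPM in control and 14.5, 9.29, 12.0 and 9.27 CPM in Sirt7 scKO. Its groups were interleaved, and its log2 fold change of -0.29 had a 95% interval of -0.75 to 0.16 (edgeR adjusted p = 0.572).

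At the junction itself, Ryr1 and Jph2 had the smallest unadjusted p of the 10 genes. Ryr1 (ENSMUSG00000030592.17, chromosome 7, 29003344 to 29125179, minus strand), the calcium release channel, stood at 177, 118 and 86.5 CPM in control and at 91.3, 53.5, 56.3 and 43.9 CPM in Sirt7 scKO. The groups crossed at a single pair, Sirt7 scKO replicate 1 lying just above control replicate 3. The fold was 0.483, or -1.05 on the log2 scale with an SE of 0.24 and a 95% interval of -1.57 to -0.53 (edgeR adjusted p = 0.112). Jph2 (ENSMUSG00000017817.11, chromosome 2, 163336242 to 163397993, minus strand), the junctophilin that ties T-tubule to reticulum and that heart also uses, stood at 108, 78.5 and 69.9 CPM in control. In Sirt7 scKO it stood at 61.3, 50.8, 45.2 and 42.0 CPM, so that no Sirt7 scKO library reached the lowest control library. Its log2 fold change was -0.77 (SE 0.154, 95% interval -1.11 to -0.44, edgeR adjusted p = 0.0732), and Jph2 ranked 55 by p among the tested genes.

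Trdn (ENSMUSG00000019787.8, chromosome 10, 33080554 to 33476709, plus strand), triadin, which links the release channel to calsequestrin, had the lowest level of the 10 genes per kilobase of exon in control. Its raw counts were 140, 71 and 57 in control against 114, 11, 35 and 35 in Sirt7 scKO. The 11 counts of Sirt7 scKO replicate 2 have an exact 95% Poisson interval of 5.49 to 19.7, which covers counting error only. In CPM, Sirt7 scKO replicate 1 was 11.1-fold above replicate 2, so the range inside the Sirt7 scKO group exceeded the difference between group means of 15.7 ± 7.61 and 7.33 ± 6.2 CPM (SD, n = 3 and 4). The log2 fold change was -1.10 (SE 0.505, edgeR adjusted p = 0.363). It was -1.89 without Sirt7 scKO replicate 1, but -0.73 without Sirt7 scKO replicate 2 and -0.64 without control replicate 1.

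The calcium store holds calsequestrin in a skeletal form, Casq1, and in a form of heart, slow fibres and developing muscle, Casq2. Casq1 (ENSMUSG00000007122.11, chromosome 1, 172209894 to 172219868, minus strand) stood at 83.9, 70.4 and 43.1 CPM in control and at 75.7, 9.68, 25.4 and 22.3 CPM in Sirt7 scKO. Of the Sirt7 scKO libraries, 3 lay below all control libraries, and replicate 1 lay above control replicates 2 and 3. The log2 fold change of Casq1 was -0.98 (SE 0.463, edgeR adjusted p = 0.379) and became -1.80 without that library (edgeR adjusted p = 0.0155). Other omissions weakened it, to -0.66 without Sirt7 scKO replicate 2 (edgeR adjusted p = 0.507) and -0.77 without control replicate 1 (edgeR adjusted p = 0.655). Casq2 (ENSMUSG00000027861.13, chromosome 3, 102086415 to 102146514, plus strand) stood at 46.9, 29.3 and 16.5 CPM in control and at 12.4, 11.9, 19.2 and 17.4 CPM in Sirt7 scKO. Here Sirt7 scKO replicates 1 and 2 were the 2 lowest libraries and control replicate 3 lay inside the Sirt7 scKO range. Its log2 fold change was -1.03 (SE 0.28, edgeR adjusted p = 0.155). Sirt7 scKO replicate 1 over replicate 2 was 7.82-fold for Casq1 and 1.04-fold for Casq2.

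The promoters of Casq1, Casq2 and Atp2a1, 250 bases before to 50 after the annotated start (RefSeq, GRCm38.p6), are shown. They were picked after the library patterns were seen, in which Casq1 and Casq2 differ and Atp2a1 is like Casq1. Whether any motif is linked to a library pattern was not tested. Capitals mark CAGCTG and CAGGTG, letters of E-boxes, which myogenic factors such as MyoD are known to bind, and a match to the MEF2 box, a site of another family of muscle transcription factors. The windows are chr1:172219846-172220145 (minus strand), chr3:102086165-102086464 (plus strand) and chr7:126463024-126463323 (minus strand).
Casq1: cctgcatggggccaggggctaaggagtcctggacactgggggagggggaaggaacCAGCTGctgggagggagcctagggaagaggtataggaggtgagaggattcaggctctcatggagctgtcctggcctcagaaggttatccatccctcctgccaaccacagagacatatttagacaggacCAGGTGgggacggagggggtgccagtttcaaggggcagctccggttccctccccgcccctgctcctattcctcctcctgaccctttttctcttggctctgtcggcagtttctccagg
Casq2: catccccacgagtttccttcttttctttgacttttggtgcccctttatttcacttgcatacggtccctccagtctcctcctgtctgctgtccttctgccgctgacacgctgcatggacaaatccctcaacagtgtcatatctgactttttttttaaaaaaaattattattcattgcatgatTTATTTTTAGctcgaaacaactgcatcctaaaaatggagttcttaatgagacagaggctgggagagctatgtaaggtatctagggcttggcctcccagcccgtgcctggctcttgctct
Atp2a1: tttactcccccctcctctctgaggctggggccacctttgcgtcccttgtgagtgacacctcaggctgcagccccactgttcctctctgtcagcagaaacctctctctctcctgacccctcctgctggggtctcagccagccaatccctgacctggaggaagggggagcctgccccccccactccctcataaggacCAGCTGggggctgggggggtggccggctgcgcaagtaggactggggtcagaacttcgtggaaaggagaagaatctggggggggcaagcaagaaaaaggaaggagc
Casq1 held CAGCTG at position -195 and CAGGTG at position -67 from the start, and no MEF2 box. Casq2 held a MEF2 box at position -69 and neither of those E-boxes, and Atp2a1 held CAGCTG at position -55.

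RefSeq promoter windows were matched for 7 of the 10 genes (not for Atp2a2, Stac3 and Trdn), 9 windows in all, and were searched on both strands. CAGCTG was present in Cacna1s, Atp2a1, Casq1 and both overlapping windows of Jph2, against 16.3% of 32851 windows of all genes. CACCTG or its reverse CAGGTG was in Casq1 only (20.2% of all windows), CATGTG or CACATG in the second window of Cacnb1 only (14.2%), and the MEF2 box in Casq2 only (3.19%). GGGCGG or CCGCCC, the GC box, was in Ryr1, Cacna1s, Casq1, the first window of Cacnb1 and both of Jph2 (35.7% of all windows). No window held a CArG box (1.63%) or TATAAA or its reverse TTTATA (13.6%). None of the matched motifs overlapped another, and the matches describe letters in a window, not binding.

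Re-uptake was measured through 2 pump genes. Atp2a1 (ENSMUSG00000030730.12, chromosome 7, 126445858 to 126463108, minus strand), the SERCA1 pump of fast fibres, stood at 656, 458 and 294 CPM in control and at 559, 88.2, 198 and 174 CPM in Sirt7 scKO. As for Casq1, Sirt7 scKO replicate 1 was among the control libraries and the other 3 were below them. The log2 fold change was -0.88 (SE 0.449, edgeR adjusted p = 0.415), and it became -1.62 without Sirt7 scKO replicate 1 (edgeR adjusted p = 0.02). It became -0.59 without Sirt7 scKO replicate 2 (edgeR adjusted p = 0.557) and -0.57 without control replicate 1 (edgeR adjusted p = 0.737). Atp2a2 (ENSMUSG00000029467.15, chromosome 5, 122453513 to 122502225, minus strand), the SERCA2 pump of slow fibres and heart, of which a splice form occurs in most cell types, stood at 242, 231 and 256 CPM in control and at 267, 295, 232 and 234 CPM in Sirt7 scKO. The 7 libraries were interleaved, and the highest was Sirt7 scKO replicate 2, the lowest library for Atp2a1. The log2 fold change was 0.08 with a 95% interval of -0.13 to 0.29 (edgeR adjusted p = 0.757). Gene counts do not separate the splice forms of Atp2a2 or the cells they came from.

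Ratios of counts within a library do not depend on how libraries are scaled, and 3 were compared. The log2 ratio of Atp2a1 to Atp2a2 was 1.44, 0.99 and 0.20 in control and 1.07, -1.74, -0.23 and -0.43 in Sirt7 scKO, a difference of -1.21 (two-sided exact permutation p = 0.171, 0.514 adjusted over the 3 ratios). Sirt7 scKO replicate 1 again stood with the control libraries. The log2 ratio of Casq1 to Casq2 was 0.84, 1.26 and 1.38 in control and 2.61, -0.30, 0.41 and 0.36 in Sirt7 scKO (difference -0.39, two-sided exact permutation p = 0.657, adjusted 0.971). Both the highest and the lowest values belonged to Sirt7 scKO libraries. The log2 ratio of Cacna1s to Ryr1, sensor to release channel, averaged -2.17 ± 0.363 in control and -2.21 ± 0.634 in Sirt7 scKO (SD, n = 3 and 4), a difference of -0.03 (two-sided exact permutation p = 0.971, adjusted 0.971). The smallest p that 35 divisions of the 7 libraries can give is 0.0286.

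**Figure D2:**
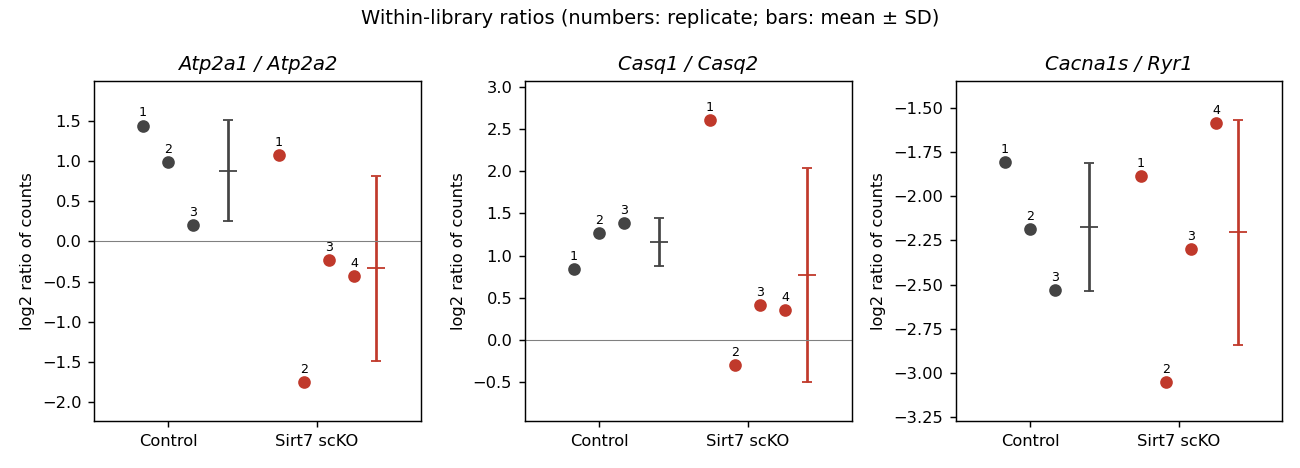
Log2 ratio of counts within each library (vertical axis) for the pump pair, the calsequestrin pair and sensor to release channel, with replicate numbers and mean ± SD. Sirt7 scKO replicates 1 and 2 lie far apart in each panel, at 1.07 and -1.74 for Atp2a1 to Atp2a2.

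Structural genes of the fibre also had negative fold changes. In a list of 28 sarcomere genes that holds none of the 10, all 27 tested genes had a negative fold change (median -1.07), none past the adjusted threshold, and their summed level was 2781 to 7167 CPM in control and 1167 to 4586 CPM in Sirt7 scKO. The sarcomere score, the mean of log2 CPM centred per gene, was 1.47, 0.83 and -0.02 in control and 0.63, -1.60, -0.67 and -0.64 in Sirt7 scKO. Trdn, Casq1, Atp2a1, Cacna1s and Cacnb1, like this score, were lowest in Sirt7 scKO replicate 2 and higher in Sirt7 scKO replicate 1 than in control replicate 3. Genes of newly formed fibres (12 tested, 12 negative, median -0.76, none past the threshold) had another order, with a score of 1.04, 0.36 and -0.20 in control and -0.58, -0.13, -0.13 and -0.36 in Sirt7 scKO, lowest in Sirt7 scKO replicate 1. Sirt7 scKO replicate 1 exceeded replicate 2 in 27 of 27 sarcomere genes, in 1 of 12 new fibre genes and in 9 of the 10 coupling genes, with ratios from 0.903 for Atp2a2 to 11.1 for Trdn.

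**Figure D3:**
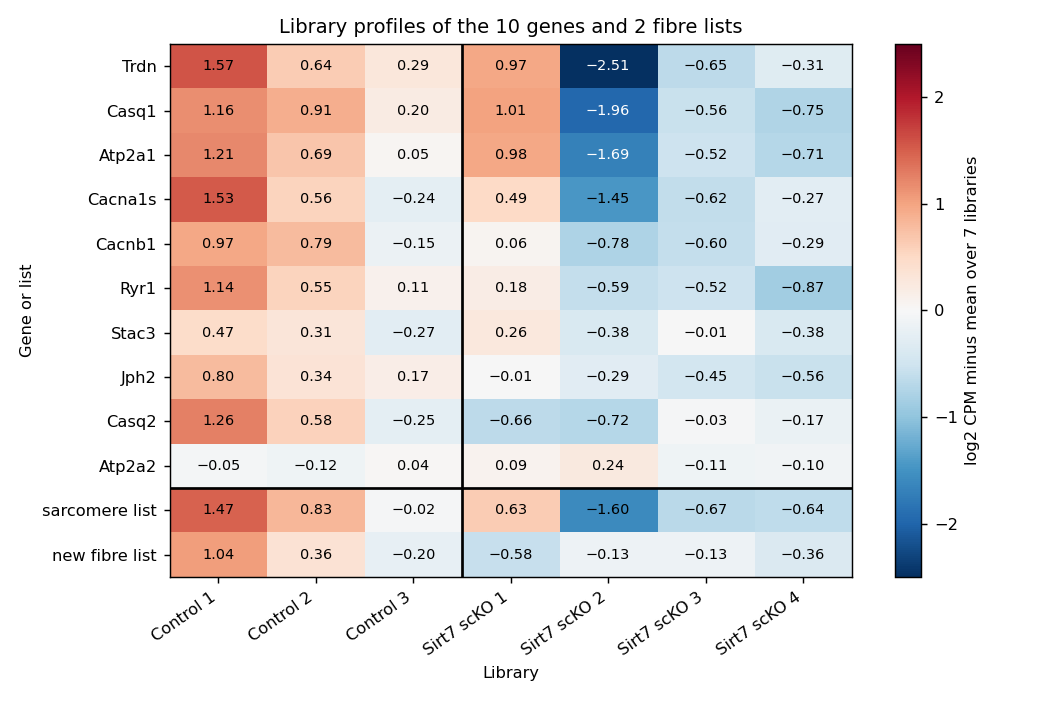
Log2 CPM of each gene minus its mean over the 7 libraries (colour and printed value), with the scores of the sarcomere and new fibre lists below the line. Gene rows have no prior count and the list scores a prior count of 2, so the 2 kinds of row are not on quite the same scale. Genes are ordered by the ratio of Sirt7 scKO replicate 1 to replicate 2. Trdn, Casq1 and Atp2a1 lie at -2.51, -1.96 and -1.69 in Sirt7 scKO replicate 2, and Atp2a2 is within 0.24 of its mean.

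With the sarcomere score added to the edgeR fit as a covariate, the log2 fold changes of the 10 genes ran from -0.51 to 0.29 and none passed (lowest edgeR adjusted p = 0.62). Those of Cacna1s (0.15), Atp2a1 (0.29), Casq1 (0.18), Trdn (0.24) and Stac3 (0.17) became positive, with 95% intervals that all spanned 0. Jph2 moved from -0.77 to -0.46 (SE 0.172, 95% interval -0.83 to -0.10) and Ryr1 from -1.05 to -0.41 (SE 0.192, 95% interval -0.82 to 0.00). Casq2 moved from -1.03 to -0.51 and Cacnb1 from -0.98 to -0.31, with intervals that spanned 0. The score came from the same libraries and itself differed between the groups, so values of genes that follow it were bound to shrink. The fit gives the difference left after a straight-line term for the score, and the parts of score and group cannot be told apart. Of other cells, erythroid genes were positive in 5 of 5 cases (summed level 102 to 114 CPM in control and 112 to 492 CPM in Sirt7 scKO, highest in replicate 3) and neutrophil genes in 3 of 4 tested (110 to 116 against 105 to 169 CPM, with Retnlg at 0 to 2 counts), none past the threshold. Most of the neutrophil sum was Csf3r (log2 fold change -0.17) and Mmp9 (0.94). Medians were 0.01 for monocyte and macrophage, 0.03 for endothelial and 0.02 for Schwann genes. They were -0.04 for fibro-adipogenic progenitor and -0.09 for smooth muscle genes, with no gene of these lists past the threshold. Their part in the results was not tested.

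**Figure D4:**
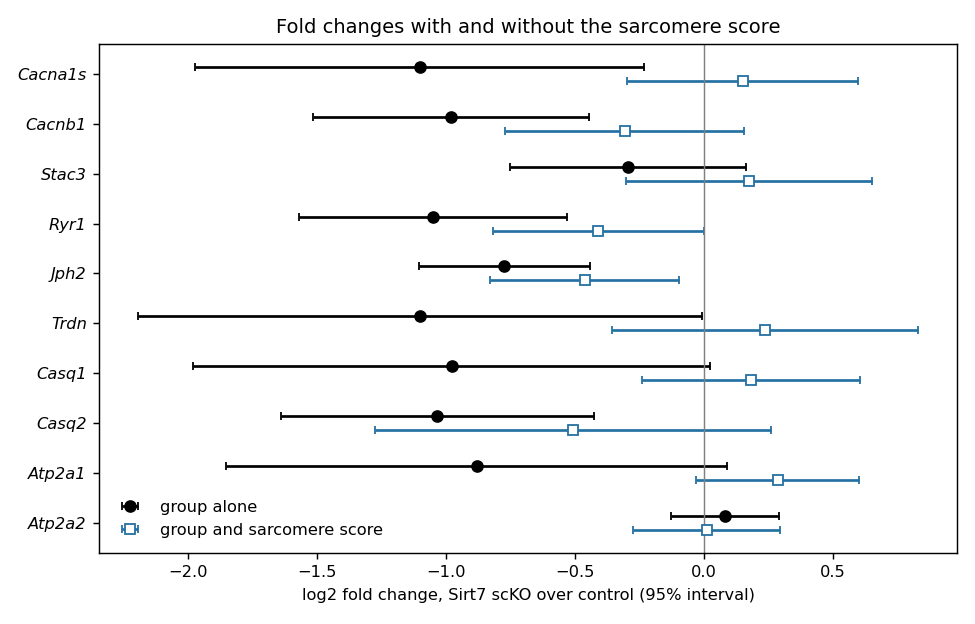
Log2 fold change of Sirt7 scKO over control with its 95% interval (horizontal axis), from the fit with group alone (filled circles) and with the sarcomere score as a covariate (open squares). With group alone 9 genes lie below 0, and with the score 5 of these lie above it and 4 below it (Casq2, Jph2, Ryr1 and Cacnb1, from -0.51 to -0.31).

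Levels of the 10 genes were also set beside each other per kilobase of annotated exon, a scale that counts every exon of every isoform and so can understate genes such as Trdn with many isoforms. In control, Atp2a1 led with 135 ± 52.1 CPM per kb, followed by Atp2a2 (39.96 ± 2.13), Casq1 (33.7 ± 10.7), Jph2 (20.1 ± 4.66) and Casq2 (11.3 ± 5.59; SD, n = 3). Cacnb1, Ryr1, Stac3 and Cacna1s lay together between 4.65 and 5.91 CPM per kb, and Trdn was last at 1.68 ± 0.813. Atp2a1 exceeded Atp2a2 in 6 of 7 libraries, the exception being Sirt7 scKO replicate 2 (25.4 against 48.6 CPM per kb). Casq2 lay above Cacnb1 and below Jph2 in every library, whereas Cacnb1 exceeded Ryr1 in only 2 of 7 and Ryr1 exceeded Stac3 in only 2 of 7, so the order within this group of subunits was not resolved. The ranges of the control libraries overlapped for every pair of neighbours except Atp2a1 and Atp2a2.

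Other calcium handling genes were read from a list of 65, of which 51 were tested. None passed the adjusted threshold (lowest edgeR adjusted p = 0.121), 37 had a negative and 14 a positive fold change (48.7% of all tested genes were negative), and the median was -0.19. An unadjusted p under 0.05 was reached by 13, all negative, against 6.94% of all tested genes. Every Sirt7 scKO library lay below every control library in 7 of the 51, against 5.71% of all tested genes. Among 8 tested T-tubule channels and genes of membrane excitability the median was -0.66 with 7 negative. Cacng1, the gamma subunit of the voltage sensor, was at -0.74 (SE 0.286, edgeR adjusted p = 0.288). Of 16 tested partners of the ryanodine receptor and reticulum proteins 12 were negative (median -0.18). Speg, a kinase of the triad region, was at -0.66 (SE 0.156, edgeR adjusted p = 0.121), and Jsrp1, the junctional protein JP-45, at -0.97 (SE 0.234, edgeR adjusted p = 0.13), with separate groups in both. Jph1, the skeletal junctophilin, was at -0.65 with overlapping groups, and the ryanodine receptor paralogs Ryr2 and Ryr3 had 0 to 1 and 2 to 9 counts per library, against 232 to 1019 for Ryr1.

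Genes that shape or repair the T-tubule membrane were negative in 6 of 6 cases (median -0.31), led by Cav3, the muscle caveolin (-1.32, SE 0.363, edgeR adjusted p = 0.165), and the membrane repair gene Trim72 (-1.18, SE 0.358, edgeR adjusted p = 0.2). In calcium uptake, buffering and export, 4 of 6 tested genes were negative (median -0.22), with the exchanger Slc8a3 at -1.10 and the buffer parvalbumin, Pvalb, at -0.82. Atp2a3, the pump of blood and endothelial cells, was at -0.22. Sarcolipin and phospholamban, small inhibitors of the pumps singled out after their values were seen, were under the filter, with 1 to 25 counts of Sln and 1 to 8 of Pln per library. Store-operated entry genes were at a median of -0.16 (7 tested, 4 negative), with the channel gene Orai1 at -0.20 and the reticulum calcium sensor gene Stim1 at -0.19. The part named calcium channels of other cells centred on 0 (8 tested, median 0.02, mean -0.02). In it Cacnb3 was at -0.25, the IP3 receptor gene Itpr1 at 0.13, and the cardiac and smooth muscle counterpart of Cacna1s, Cacna1c, at 0.14. This part also held genes that are not channels, such as Stac2, and which cells its reads came from was not tested.

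**Figure D5:**
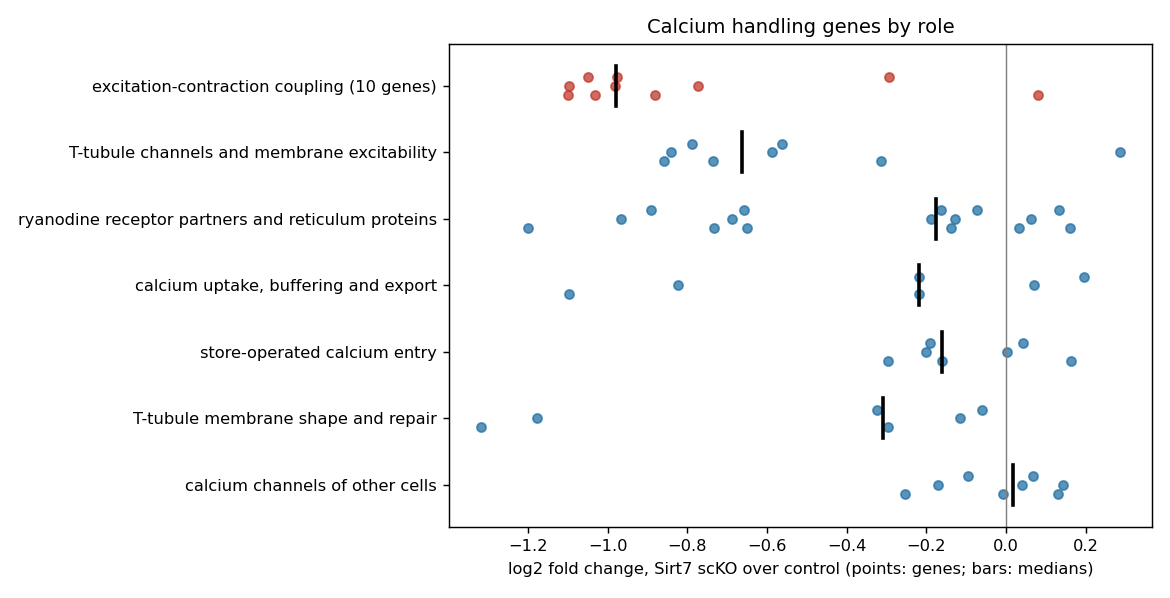
Log2 fold change of Sirt7 scKO over control (horizontal axis) of each tested gene (points) in the 10 coupling genes and the 6 parts of the calcium handling list, with medians as bars. The medians run from -0.98 for the coupling genes to 0.02 for the part named calcium channels of other cells.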

How the data were processed

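The deposited values are counts, raw whole numbers per gene and library. Per the submitters' processing notes, fastp, Bowtie2 and featureCounts were used with GRCm38 (mm10), without versions, roles or order. Per the labels, the NEBNext Ultra RNA kit was used. It keeps no strand, so sense and antisense reads are mixed where genes overlap. The sources used here give neither the annotation release nor the rule for reads that fit several genes.

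Of 48820 identifiers, 48144 matched GENCODE mouse release 21 without the version. Strit1 was read under its synonym Gm34302. The unmatched identifiers held 0.22% of counts. The edgeR function filterByExpr removed low genes (at least 10 counts in enough libraries and 15 in total were asked). After TMM scaling, edgeR 4.0.16 (R 4.3.3) gave a quasi-likelihood F test with group as the only term, with Benjamini-Hochberg adjustment over all tested genes. The SE is the log2 fold change divided by the square root of F. CPM used TMM factors and counts in tested genes. List scores used log2 CPM with a prior count of 2, ratios log2 counts with 0.5 added. The fit was tested on simulated counts with known changes, of which the smallest were recovered only in part. Alternatives used DESeq2 1.42.0 and limma 3.58.1, and figures matplotlib 3.10.9.

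All 10 genes are named. In each part of the calcium list the 2 genes with the smallest unadjusted p are named, and paralogs of the 10 may be. A gene that this rule picks is not reported here. The genes, lists and tests were chosen with earlier results of these data known.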

Additional observations from a re-analysis of the deposited data

How the results depend on the processing

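The number of excitation-contraction coupling genes past the threshold was 0 with RLE or total-count scaling, limma voom and the sarcomere covariate, but 8 with no filter on low counts and 3 with DESeq2, all lower, and 0 to 5 when single libraries were left out. For the calcium handling list it was 13 with no filter, 3 with DESeq2 and 0 to 10 without single libraries. Over all genes it was 22, and 35 with total-count scaling, 585 with no filter, 159 with DESeq2, and from 0 (without control replicate 2) to 330 (without Sirt7 scKO replicate 4). The cause of these shifts was not tested. With the replicate number as a block, 4 coupling genes (Ryr1, Cacna1s, Cacnb1 and Jph2), 8 calcium handling genes and 537 of 16764 tested genes passed. Only Sirt7 scKO has a replicate 4, so its block term took up that library, which then added nothing to the group difference. Same-numbered libraries did not deviate together (correlations 0.12, -0.07 and 0.10), 1 of 3 control libraries correlated best with its own number, and no label pairs them.

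Across 140 combinations of gene and alternative, 110 kept direction and side of the threshold, 25 passed it in the same direction, and 5 turned positive, all with the sarcomere covariate: Cacna1s 0.15, Atp2a1 0.29, Casq1 0.18, Stac3 0.17 and Trdn 0.24. The log2 ratio of Cacna1s to Ryr1, near 0, ran from -0.24 to 0.25 without single libraries and was above 0 without control replicate 1 (0.15), Sirt7 scKO replicate 2 (0.25) or Sirt7 scKO replicate 3 (0.0010). With a library left out, exact permutation over the remaining 6 cannot reach 0.05. Trdn, Stac3 and Cacna1s, at 11, 49 and 49 counts in their lowest libraries, are the genes that depth limits most.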

Other observations

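Reads of a few coupling genes could be shared with genes on the other strand. Rabep2 shares 763 exon bases with Atp2a1 and had 147 to 234 counts per library, against 674 to 3976 for Atp2a1. The antisense gene Gm37759 shares 1309 exon bases with Cacna1s and had 68, 30 and 22 counts in control and 46, 15, 21 and 26 in Sirt7 scKO. Gm26604 shares 864 exon bases with Ryr1 and had 7 to 29 counts. How such reads were assigned is not given in the sources used here.

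Atp2a1 and Atp2a2 together made up most of the summed CPM of the 10 genes in every library. In control, 16.8%, 21.6% and 31.4% of that sum was Atp2a2 (replicate order), against 23.4%, 55.0%, 37.6% and 40.5% in Sirt7 scKO.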
